A study of Mus musculus with 48 samples.

Results

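The actin cytoskeleton and contractile genes followed here are 44 genes of the mouse, chosen by name, out of 24264 transcript rows in the read count file, of which 19768 held at least 1 read. They comprise 3 muscle actins, the 2 cytoplasmic actins, 6 genes of the calponin, transgelin and caldesmon group, 4 tropomyosins, 5 genes of myosin II, 3 class I myosins, 6 genes that bind monomers or sever or cap filaments, 6 cross-linkers, 7 scaffolds of adhesions and stress fibres and 2 linkers to the membrane. All 44 passed the filter on low counts and were among the 15630 genes tested. Their levels are given as CPM, reads of a gene scaled to 1000000 reads on transcripts. Because the libraries were made by STRT, which reads the 5′ end of each transcript, CPM was not divided by gene length.

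The study followed mouse embryonic fibroblasts (MEFs) reprogrammed to induced pluripotent stem cells (iPSCs) by either of a pair of doxycycline-inducible cassettes, MKOS and OKMS, which carry Myc, Klf4, Oct4 and Sox2 in different orders. MKOS encodes a long form of Klf4, and OKMS a short one that lacks N-terminal amino acids. Each cassette was targeted, together with a CAG-driven rtTA transactivator, into an intron of Sp3 in TNG embryonic stem cells (ESCs), which report Nanog by GFP. The MKOS and OKMS MEFs came from chimeric embryos made with these ESC clones, so their stocks also held host cells, and for reprogramming they were diluted in wild-type (WT) MEFs, which shared the plates. Doxycycline and vitamin C were given during reprogramming. The study describes sorting on day 10, and the labels of the sorted populations give 10 or 15 days of this treatment. Cells were sorted by E-cadherin (E-CAD), CD44, ICAM1 and Nanog-GFP. In the population names, 2 means CD44- ICAM1-, 3 means CD44- ICAM1+, and NG- or NG+ gives the Nanog-GFP gate. The sorted populations were OKMS E-CAD- 2NG- and 3NG-, OKMS E-CAD+ 2NG-, 3NG- and 3NG+, and MKOS E-CAD+ 2NG-, 3NG- and 3NG+, with 3 libraries of each. The other 12 conditions had 2 libraries each. They were the MEFs (WT, MKOS and OKMS), ESCs of the lines E14, TNG, TNG MKOS and TNG OKMS, iPSCs of each cassette without doxycycline (-dox) or in 2i medium, and D6 iPSCs, a line with a single piggyBac MKOS insertion. No source used here says that the libraries of a condition came from separate cultures, so the p-values measure the spread between these libraries, which may be technical.

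The 48 libraries held 1429717 to 14174725 reads on transcripts, with a median of 6243254.5, and 3 reads were worth 0.212 to 2.10 CPM. Marker sums set MEFs apart from iPSCs and ESCs. The 12 fibroblast markers summed to 3302 to 6073 CPM in MEFs and 9.46 to 36.3 CPM in iPSCs and ESCs. The 8 pluripotency markers summed to 3.65 to 15.7 and to 11540 to 23750 CPM. Markers of differentiated muscle (8 genes) summed to 38.6 to 90.6 CPM in MEFs. There Myod1, the master regulator of skeletal muscle, was at 0 to 0.981 CPM, and Myog, Myh3 and Synpo2 at 0 to 4.08. Des, Myh11, Lmod1 and Smtn were at 2.66 to 25.5 CPM. In sorted populations the fibroblast markers summed to 78.1 to 1046 CPM. Reads that map to near-identical copies were counted, so Actg1 (0.187% of its reads at a single position), Acta1 (20.9%), Tpm3 (28.6%), Cnn3 (60.8%), Actb (87.3%), Tpm4 (87.9%) and Lasp1 (89.9%) are uncertain, whereas 31 members had at least 99% of their reads at a single position.

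Actin monomers polymerise into filaments that are crossed, capped and severed by binding proteins, and bundles of them with tropomyosin and non-muscle myosin II form the contractile stress fibres that pull on focal adhesions. Fibroblasts in culture carry prominent stress fibres and, on activation, add the smooth muscle actin, transgelin and calponin of myofibroblasts. Monomeric actin holds back MRTF, a coactivator of SRF, and SRF binds the CArG box in the promoters of many actin and myosin genes. During reprogramming fibroblasts give up this mesenchymal architecture and take on epithelial contacts before pluripotency genes are switched on.

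The CArG box was looked for in the promoters of the members, since it is the known site of SRF. RefSeq promoters of GRCm38.p6, from 250 bases before to 50 bases after the start, were at hand for 40 of the 44 members. Actb, Actg2, Tagln and Myo1d had no promoter at hand and were not searched. On either strand the box was found in 8 of the 40 (20%) and in 488 of 27025 genes (1.81%). TATAAA, searched on both strands, was in 10% of the members' promoters and 15.7% of all, and GGAATG, the core of the TEAD site, in 30% and 16.6%. The 8 boxes are printed 5′ to 3′ on the strand of the gene with 20 bases on either side, with the box in capitals. The search fixed the outer letters CC and GG and allowed only A or T between them, so the boxes are alike by selection.
Myl9, a regulatory light chain of myosin II (chr2:156775283-156775332, plus strand): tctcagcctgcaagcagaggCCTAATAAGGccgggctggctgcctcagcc
Acta1, skeletal muscle actin (chr8:123894819-123894868, minus strand): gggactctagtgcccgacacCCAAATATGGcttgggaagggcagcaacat
Myo1e, a class I myosin (chr9:70207298-70207347, plus strand): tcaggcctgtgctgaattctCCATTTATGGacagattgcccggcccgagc
Cnn2, calponin 2 (chr10:79988524-79988573, plus strand): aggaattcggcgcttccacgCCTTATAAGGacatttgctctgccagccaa
Myl6, the essential light chain of myosin II (chr10:128493030-128493079, minus strand): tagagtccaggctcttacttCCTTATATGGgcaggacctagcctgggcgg
Actg1, cytoplasmic gamma-actin (chr11:120348556-120348605, minus strand): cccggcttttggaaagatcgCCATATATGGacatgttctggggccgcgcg
Vcl, vinculin (chr14:20929151-20929200, plus strand): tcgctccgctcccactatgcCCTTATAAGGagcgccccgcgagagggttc
Lima1, the cross-linker EPLIN (chr15:99820167-99820216, minus strand): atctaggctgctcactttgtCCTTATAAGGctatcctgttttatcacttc
The box began 32 bases (Myo1e) to 227 bases (Vcl) before the start. Cnn2, Vcl and Lima1 shared the same 10 letters, of which only the A or T positions were free to differ.

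The 44 genes took a larger share of the reads in MEFs than in any other condition. Their reads were 2.79% ± 0.0188 (SD, n = 2) of those on transcripts in WT MEFs, 2.11% ± 0.0730 in MKOS MEFs and 3.56% ± 0.134 in OKMS MEFs. In the sorted populations the share was 0.964% to 1.02% in OKMS E-CAD- and OKMS E-CAD+ Nanog-GFP- cells, 1.35% ± 0.217 (SD, n = 3) in MKOS 2NG- and 1.32% ± 0.206 in MKOS 3NG-. Nanog-GFP+ cells held 0.698% ± 0.0603 (OKMS) and 0.872% ± 0.180 (MKOS), within or close to the 0.674% to 0.966% of iPSCs and ESCs. In these bulk libraries fewer cells of a type and less RNA per cell cannot be told apart.

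**Figure D1:**
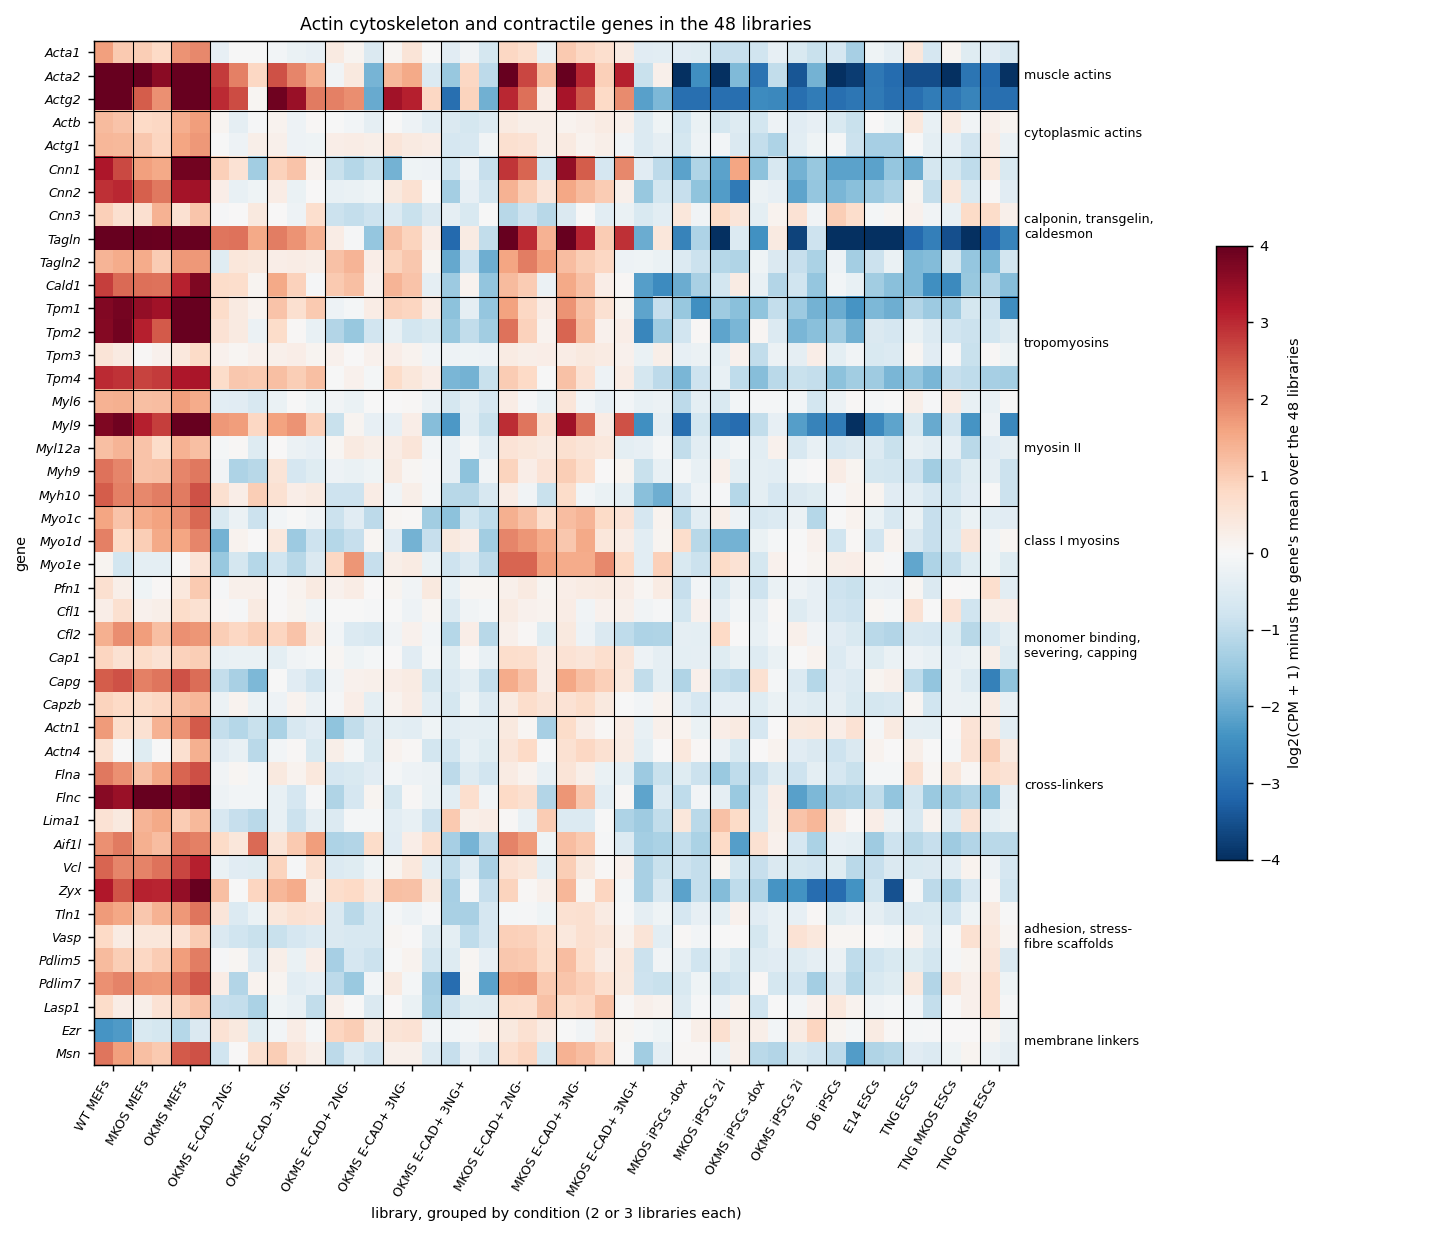
Heatmap of the 44 genes (rows, grouped by role) in the 48 libraries (columns, grouped by condition), as log2(CPM + 1) minus the gene's mean over all libraries, with the colour scale clipped at 4 either side of 0. Most rows are highest in the 6 MEF libraries, and the Ezr row runs the other way.

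Acta2, the smooth muscle actin of myofibroblasts, stood at 1356 and 1464 CPM in the WT MEF libraries, 707 and 517 in MKOS MEFs and 1811 and 1741 in OKMS MEFs. In sorted OKMS cells it was at 299, 172 and 75.3 CPM in E-CAD- 2NG-, 251, 164 and 114 in E-CAD- 3NG-, 37.8, 55.1 and 10.8 in E-CAD+ 2NG-, 104, 121 and 28.5 in E-CAD+ 3NG- and 14, 75.5 and 19.9 in 3NG+. Sorted MKOS cells held 761, 271 and 97.3 CPM in 2NG-, 787, 343 and 81.4 in 3NG- and 365, 21.9 and 48.2 in 3NG+. MEFs were highest, the MKOS Nanog-GFP- populations overlapped the range of MKOS MEFs at their top, and the OKMS E-CAD+ libraries lay below MEFs, with their highest above the lowest of MKOS. The 10 iPSC libraries ranged from 0.415 to 20.5 CPM (median 3.77), and the 8 ESC libraries from 1.37 to 4.91 (median 3.36). By mean the order was MEFs, MKOS Nanog-GFP-, OKMS E-CAD- and OKMS E-CAD+ Nanog-GFP- cells, and neighbours in this order overlapped.

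Tagln, the actin-bundling transgelin of smooth muscle, was likewise highest in MEFs. It was at 1665 and 1645 CPM in WT MEFs, 716 and 623 in MKOS MEFs and 2306 and 2013 in OKMS MEFs. OKMS E-CAD- 2NG- cells had 177, 181 and 115 CPM and 3NG- 165, 139 and 105, whereas OKMS E-CAD+ cells had 48.6, 38.4 and 12.8 in 2NG-, 89.6, 73.8 and 47.3 in 3NG- and 3.66, 49.7 and 19.6 in 3NG+. MKOS cells had 747, 316 and 106 CPM in 2NG-, 819.8, 329.9 and 80.2 in 3NG- and 303, 9.28 and 54.3 in 3NG+. Within MKOS populations the libraries spread widely, yet all 3 libraries of MKOS 2NG- were above all 3 of OKMS E-CAD+ 2NG-. Tagln had medians of 6.0 CPM in iPSCs and 2.95 in ESCs, and its 2 E14 ESC libraries held 0 and 4 reads.

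Cnn1, the smooth muscle calponin, was low throughout, at 40.4 and 26.5 CPM in WT MEFs, 12.5 and 11.5 in MKOS MEFs and 62.2 and 61.7 in OKMS MEFs. It was at 30.7, 21.1 and 1.63 CPM in MKOS 2NG-, 48.5, 22.2 and 1.71 in MKOS 3NG- and 15.6, 2.17 and 1.13 in MKOS 3NG+. OKMS E-CAD+ cells had 1.36, 0.967 and 1.34 CPM in 2NG- (8, 3 and 19 reads), 0.178, 2.86 and 2.83 in 3NG- and 1.51, 2.80 and 1.29 in 3NG+. MKOS cells before the gain of Nanog-GFP thus reached the level of MKOS MEFs in some libraries, while OKMS E-CAD+ cells were near the floor of counting. OKMS E-CAD- cells stood between them at 7.40, 5.49 and 0.652 CPM in 2NG- and 7.27, 8.72 and 3.81 in 3NG-. In iPSCs and ESCs the medians were 0.294 and 1.41 CPM.

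Myl9, the regulatory light chain of smooth muscle and non-muscle myosin II, was at 274 and 305 CPM in WT MEFs, 180.4 and 142 in MKOS MEFs and 533 and 502 in OKMS MEFs. MKOS cells held 162, 90.8 and 30.5 CPM in 2NG-, 216, 96.2 and 24.3 in 3NG- and 119.7, 2.77 and 15.3 in 3NG+. OKMS E-CAD+ cells held 10.2, 21.6 and 15.6 CPM in 2NG-, 15.7, 23.8 and 5.41 in 3NG- and 3.28, 14.7 and 10.3 in 3NG+. Replicate 1 was the highest library of each MKOS population, and OKMS E-CAD+ libraries of 2NG- and 3NG- all lay below the MKOS ones. OKMS E-CAD- cells had 68.3, 65.6 and 35.9 CPM in 2NG- and 63.1, 70.8 and 38.9 in 3NG-, against medians of 2.13 in iPSCs and 4.01 in ESCs.

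Tpm2, the beta-tropomyosin that stabilises filaments in stress fibres, was at 649.6 and 747 CPM in WT MEFs, 438 and 279 in MKOS MEFs and 937 and 978 in OKMS MEFs. It was at 229.6, 96.1 and 55.4 CPM in MKOS 2NG-, 259.8, 124 and 56.7 in MKOS 3NG- and 61.0, 7.51 and 18.2 in MKOS 3NG+. OKMS cells had 76.5, 65.6 and 42.4 CPM in E-CAD- 2NG-, 83.7, 51.9 and 40.8 in E-CAD- 3NG-, 21.8, 17.1 and 29.5 in E-CAD+ 2NG-, 41.2, 29.8 and 32.5 in E-CAD+ 3NG- and 16.9, 25.2 and 18.5 in 3NG+. The MKOS Nanog-GFP- libraries did not overlap with OKMS E-CAD+ libraries of the same gate. In iPSCs and ESCs the medians were 16.7 and 32.3 CPM.

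Actb and Actg1, the beta- and gamma-actins of all cells, varied far less. Actb was at 4742 and 4283 CPM in WT MEFs, 3437 and 3495 in MKOS MEFs, 5424 and 6285 in OKMS MEFs, 2513, 2326 and 2295 in MKOS 2NG-, 2186, 2277 and 2479.6 in MKOS 3NG-, 1933, 1801 and 1536 in OKMS E-CAD+ 2NG- and 1923, 1721 and 1466 in OKMS E-CAD+ 3NG-. Actg1 ranged from 2790.5 to 5201 CPM in MEFs, 1718 to 2425 in MKOS Nanog-GFP- cells, 1807 to 2146 in OKMS E-CAD+ Nanog-GFP- cells and 613 to 1917 in ESCs. In both genes every MEF library was above every other library.

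Ezr encodes ezrin, which ties filaments to the membrane of epithelial microvilli, and it ran against the rest. It was at 15.5 and 16.6 CPM in WT MEFs, 54.6 and 51.4 in MKOS MEFs and 37.3 and 56.1 in OKMS MEFs. In MKOS cells it was at 109, 127 and 106 CPM in 2NG-, 81.7, 75.4 and 106 in 3NG- and 88.3, 79.4 and 73.4 in 3NG+. OKMS E-CAD+ cells had it at 152, 166 and 108 in 2NG-, 119.6, 125 and 76.0 in 3NG- and 77.3, 78.3 and 91.9 in 3NG+. OKMS E-CAD- cells had it at 124, 110 and 59.4 CPM in 2NG- and 76.8, 103 and 79.2 in 3NG-. In both cassettes every 2NG- library was above every MEF library of that cassette. The medians of iPSCs and ESCs were 97.5 and 84.0 CPM.

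**Figure D2:**
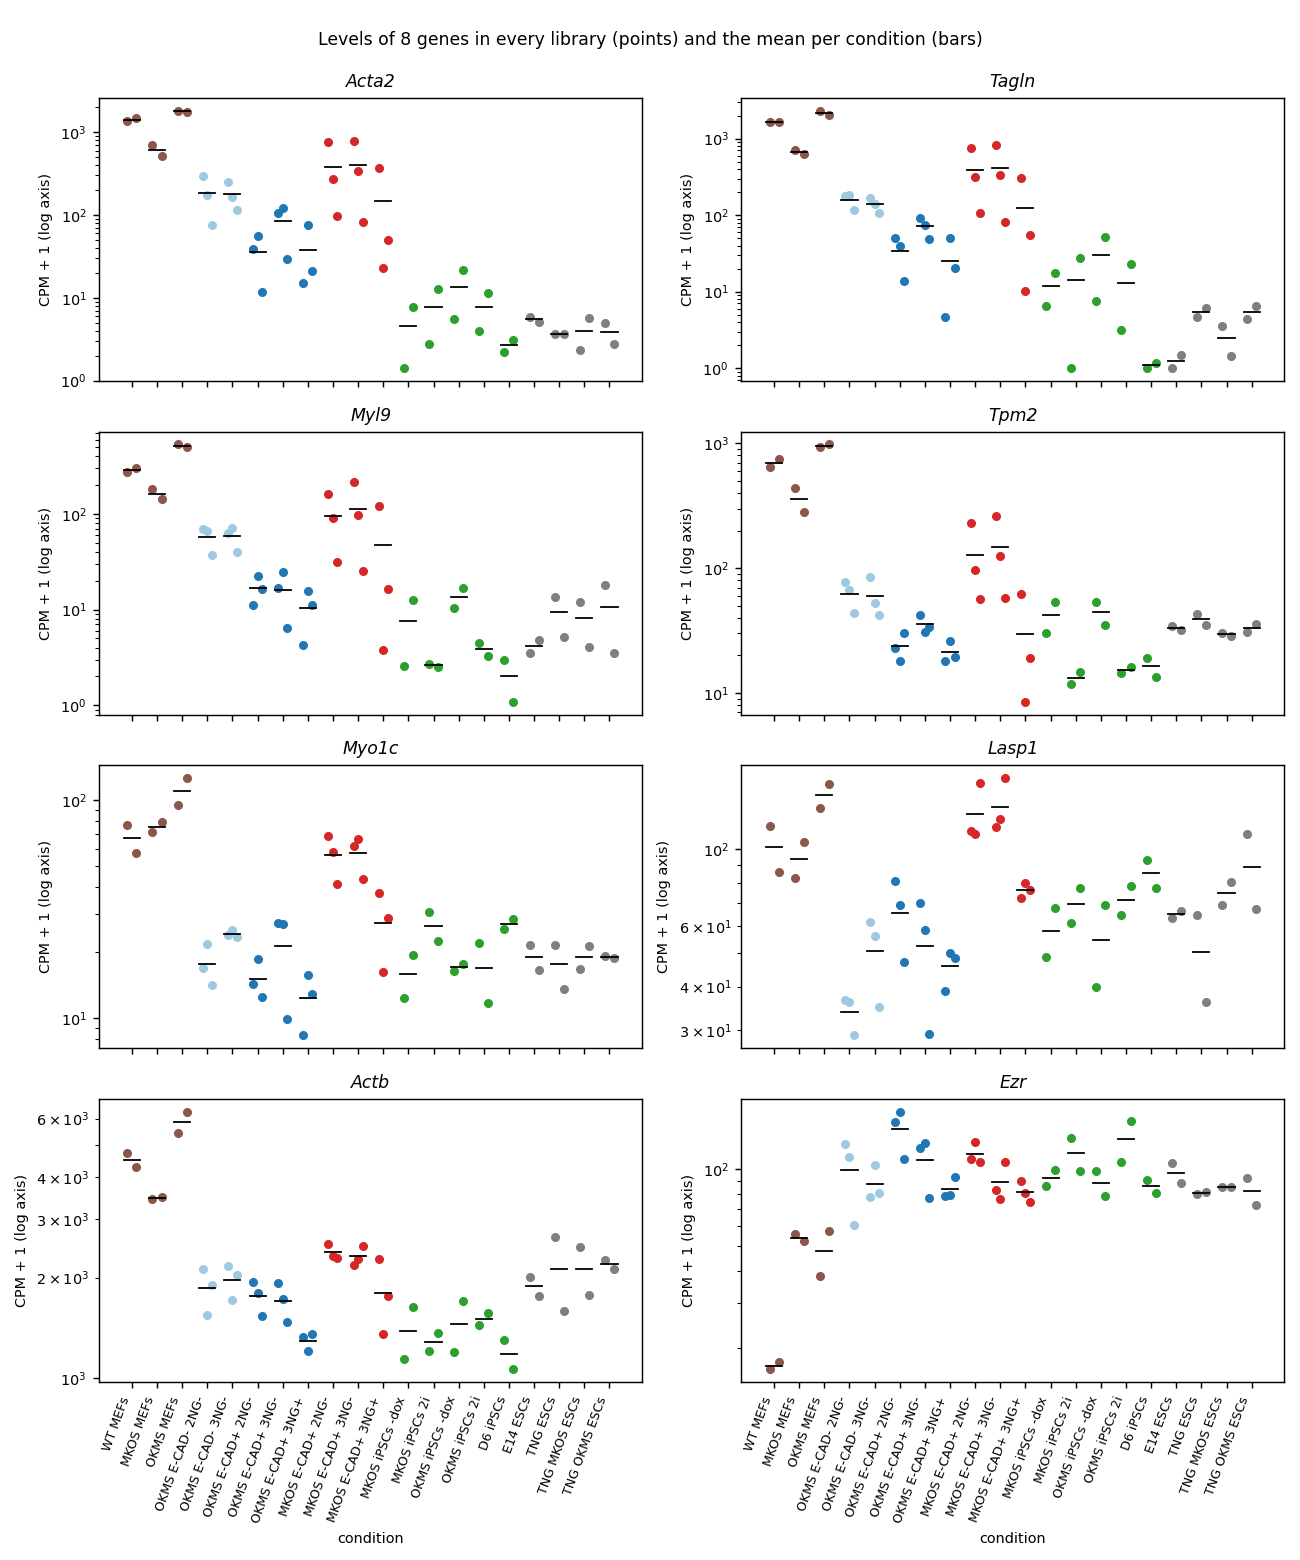
CPM + 1 on a log axis of Acta2, Tagln, Myl9, Tpm2, Myo1c, Lasp1, Actb and Ezr in the 20 conditions, with a point for each library and a bar at the mean of the condition (brown MEFs, light blue OKMS E-CAD-, blue OKMS E-CAD+, red MKOS E-CAD+, green iPSCs, grey ESCs). Acta2 and Tagln span the widest range, the red points of 2NG- and 3NG- have higher means than the blue ones for the first 6 genes, and Ezr is lowest in MEFs.

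From MEFs to ESCs, 40 of the 44 genes fell and Ezr alone rose, against 30.4% of all genes tested that were lower and 29.6% that were higher (edgeR's quasi-likelihood test with Benjamini-Hochberg adjustment, adjusted p at most 0.05). All 6 MEF and 8 ESC libraries entered, as means of 3 and 4 conditions. Log2 fold changes are given ± SE here and in what follows, with the adjusted p of this test. The median log2 fold change of the members was -2.09, and that of all genes was 0. Every member of the muscle actin, cytoplasmic actin, calponin, tropomyosin, myosin II and scaffold groups fell. The largest median was in the muscle actins and the smallest among groups that fell throughout was in the cytoplasmic actins. Myo1e (-0.58 ± 0.26, adjusted p = 0.0531), the cofilin Cfl1 (-0.25 ± 0.16, adjusted p = 0.172) and the alpha-actinin Actn4 (-0.07 ± 0.16, adjusted p = 0.776) did not pass the test.

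Among the members that fell, Tpm4, a tropomyosin of non-muscle cells, had the smallest adjusted p. Its levels were 654 and 621 CPM in WT MEFs, 544 and 577 in MKOS MEFs and 781 and 811 in OKMS MEFs against a range of 22.6 to 43.0 (median 30.7) in the 8 ESC libraries, a log2 fold change of -4.39 ± 0.22, adjusted p = 1.87e-20. Tpm1, the alpha-tropomyosin, went from 1205 to 2529 CPM (median 1578) in MEFs to 19.7 to 70.1 (median 42.2) in ESCs (-5.32 ± 0.27, adjusted p = 7.64e-20). Neither gene's MEF and ESC libraries overlapped. Cnn2, a calponin of non-muscle cells, went from a median of 712 to 62.1 CPM (-3.31 ± 0.22, adjusted p = 1.65e-16), and Vcl, which links talin at adhesions to actin, from 202 to 27.7 (-2.86 ± 0.20, adjusted p = 1.52e-15). The smooth muscle genes had log2 fold changes of -9.55 ± 0.79 for Tagln, -8.52 ± 0.68 for Acta2, -5.45 ± 0.57 for Myl9 and -4.78 ± 0.76 for Cnn1 (adjusted p = 1.37e-13, 3.82e-14, 5.72e-11 and 9.01e-07). Actg2, the enteric smooth muscle actin, was at 27.9 to 209 CPM in MEFs and had 0 to 2 reads in each ESC library, so no fold is given. Flnc, a filamin of muscle, fell by 41.5-fold, Zyx, the adhesion protein zyxin, by 19.8-fold, Cald1, caldesmon, by 23.1-fold and Tpm2 by 18.7-fold. The membrane linkers moved apart: Msn, moesin, fell (-2.35 ± 0.21, adjusted p = 1.53e-12) and Ezr rose (1.34 ± 0.16, adjusted p = 1.28e-09). Of the 8 members with a CArG box printed above, all but Myo1e fell.

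In the first step with MKOS, from MKOS MEFs to E-CAD+ 2NG-, 18 members fell and 2 rose, beside 12% and 15% of all genes. The median log2 fold change of the members was -0.59 (0 for all genes), and 24 did not pass the test. Those that fell lay in the tropomyosins (3 of 4), the cross-linkers (4 of 6), the calponin group (3 of 6), the scaffolds (3 of 7), myosin II (2 of 5), the monomer-binding group (2 of 6) and the cytoplasmic actins (1 of 2), and none was a muscle actin.

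Cnn3, a calponin of non-muscle cells, was at 156 and 265 CPM in MKOS MEFs and 46.2, 55.8 and 45.9 in 2NG- (-2.11 ± 0.26, adjusted p = 5.11e-08). Flnc was at 124 and 129 and 12.4, 11.1 and 2.44 CPM (-3.90 ± 0.60, adjusted p = 3.75e-06). Tpm4 went from 544 and 577 to 169, 145 and 80.9 CPM (-2.13 ± 0.33, adjusted p = 4.26e-06). In all 3 genes every 2NG- library was below both MEF libraries. Tpm1 had 1331 and 1205 CPM in MKOS MEFs and 355, 204 and 144 in 2NG- (-2.47 ± 0.41, adjusted p = 1.01e-05). Zyx (-2.73), Myh10, a heavy chain of non-muscle myosin II (-2.21), Vcl (-1.87), Cfl2, the muscle cofilin (-1.58), Tpm2 (-1.55), Cald1 (-1.41) and Tln1, talin (-1.40), also fell on the log2 scale. The members that rose were Myo1e, from 11 and 11.1 to 77.5, 78.4 and 47.8 CPM (2.58 ± 0.48, adjusted p = 6.66e-05), and Ezr (1.06 ± 0.26, adjusted p = 0.00212).

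The smooth muscle genes did not pass the test at this step. The log2 fold changes were -0.74 ± 0.84, adjusted p = 0.551 for Acta2, -0.82 ± 0.92, adjusted p = 0.549 for Tagln, -0.82 ± 0.81, adjusted p = 0.485 for Myl9 and 0.53 ± 1.12, adjusted p = 0.778 for Cnn1. The 3 MKOS 2NG- libraries of Acta2, Tagln and Cnn1 were spread from below to above both MKOS MEF libraries, as their values above show. For Myl9 the highest 2NG- library lay between the MKOS MEF libraries and the others below them. Among the calls named for this step, those of Tpm2 and Cald1 were lost without MKOS 2NG- replicate 2 (adjusted p = 0.0786 and 0.0710), without its replicate 3 (0.108 and 0.184) or without MKOS MEF replicate 1 (0.226 and 0.157), and that of Cald1 also without MKOS MEF replicate 2 (0.0929).

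In the first step with OKMS, far more of the genes fell. From OKMS MEFs to OKMS E-CAD- 2NG-, 38 members fell and Ezr rose, beside 10.1% and 11.7% of all genes, and the median log2 fold change was -2.10. From OKMS MEFs to E-CAD+ 2NG-, 38 members again fell and Ezr rose, beside 13.5% and 15.7% of all genes, with a median of -2.36. Both steps share the MEF libraries. All 5 myosin II genes, both cytoplasmic actins and all 7 scaffolds fell in both.

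Flna, the filamin of most cells, had the smallest adjusted p in both. It was at 737 and 875 CPM in OKMS MEFs, 131, 154 and 137 in E-CAD- 2NG- (-2.55 ± 0.25, adjusted p = 8.47e-10) and 92.5, 95.4 and 108 in E-CAD+ 2NG- (-2.91 ± 0.25, adjusted p = 2.65e-11). Vcl was at 272 and 362 CPM in OKMS MEFs, 34.7, 29.9 and 29.7 in E-CAD- 2NG- (-3.35 ± 0.34, adjusted p = 2.02e-09) and 28.0, 29.3 and 36.8 in E-CAD+ 2NG- (-3.20 ± 0.34, adjusted p = 2.46e-09). Every sorted library of both genes was below both MEF libraries. Cnn2 went from 913 and 926 CPM to 109, 73.5 and 80.1 in E-CAD- 2NG- (-3.42 ± 0.36, adjusted p = 4.82e-09) and 73.6, 75.1 and 79.6 in E-CAD+ 2NG- (-3.48 ± 0.36, adjusted p = 1.55e-09), and Tpm1 from 2392 and 2529 CPM to 192, 148 and 129 (-4.0 ± 0.43, adjusted p = 4.89e-09) and 99.5, 111 and 142 (-4.27 ± 0.43, adjusted p = 6.41e-10). Tln1 went from 128 and 171 CPM to 25.1, 17.4 and 24.1 in E-CAD+ 2NG- (-2.61 ± 0.27, adjusted p = 1.13e-09).

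The smooth muscle genes fell in both OKMS steps. To E-CAD- 2NG-, Tagln changed by -3.81 ± 0.98 (SE), Acta2 by -3.30 ± 0.88, Cnn1 by -3.80 ± 1.16 and Myl9 by -3.22 ± 0.84 on the log2 scale. To E-CAD+ 2NG- the same genes changed by -5.96 ± 1.07, -5.65 ± 0.97, -5.48 ± 1.26 and -4.95 ± 0.90 (adjusted p = 3.51e-05, 1.68e-05, 0.000912 and 4.48e-05). Other members that fell to E-CAD+ 2NG- were Tpm2 (-5.25), Flnc (-4.54), Msn (-3.24), Tpm4 (-3.14) and Zyx (-3.13). To E-CAD- 2NG- others were Flnc (-4.38), Tpm2 (-3.99), Capg, a capping protein of filaments (-3.81), Actn1, an alpha-actinin (-3.21), and Zyx (-3.11). Ezr rose by 2.09-fold to E-CAD- 2NG- and 3.28-fold to E-CAD+ 2NG-. To E-CAD- 2NG-, the call of Cnn1 was lost without OKMS E-CAD- 2NG- replicate 3 (adjusted p = 0.0752) or OKMS MEF replicate 1 (0.0509), and that of Ezr without OKMS MEF replicate 1 (0.0740). The members that did not pass in E-CAD+ cells were Tagln2, Tpm3, Myo1e, Pfn1 and Cfl1, with log2 fold changes from -0.63 to 0.69.

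Set against the MEFs of their own cassette, MKOS 2NG- and 3NG- cells kept a median of 68.0% and 67.8% of the MEF level over the 44 genes. OKMS E-CAD- cells kept 23.9% and 27.7%, and OKMS E-CAD+ cells 17.8% and 25.3%. Members above the MEF level numbered 14 and 10 in MKOS 2NG- and 3NG-, and 2 and 1 in OKMS E-CAD+ 2NG- and 3NG-. Percentages of the MEF level were computed for the 44 genes only. These medians and counts therefore do not show how the members differ from other genes. By role, the adhesion scaffolds kept 84.6% (MKOS 2NG-) and 13.6% (OKMS E-CAD+ 2NG-) as a median, the monomer-binding group 89.0% and 45.2%, and the tropomyosins 29.5% and 7.67%. Examples are Cnn1 (148% and 1.98%), Acta2 (61.6% and 1.95%) and Myo1e (617% and 156%). Without MKOS 2NG- replicate 1 the MKOS values were 94.7% for Cnn1 and 30.1% for Acta2, and the median of the 44 was 61.7%. These percentages divide by MEF levels that were themselves lower in MKOS than in OKMS MEFs, as given next.

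**Figure D3:**
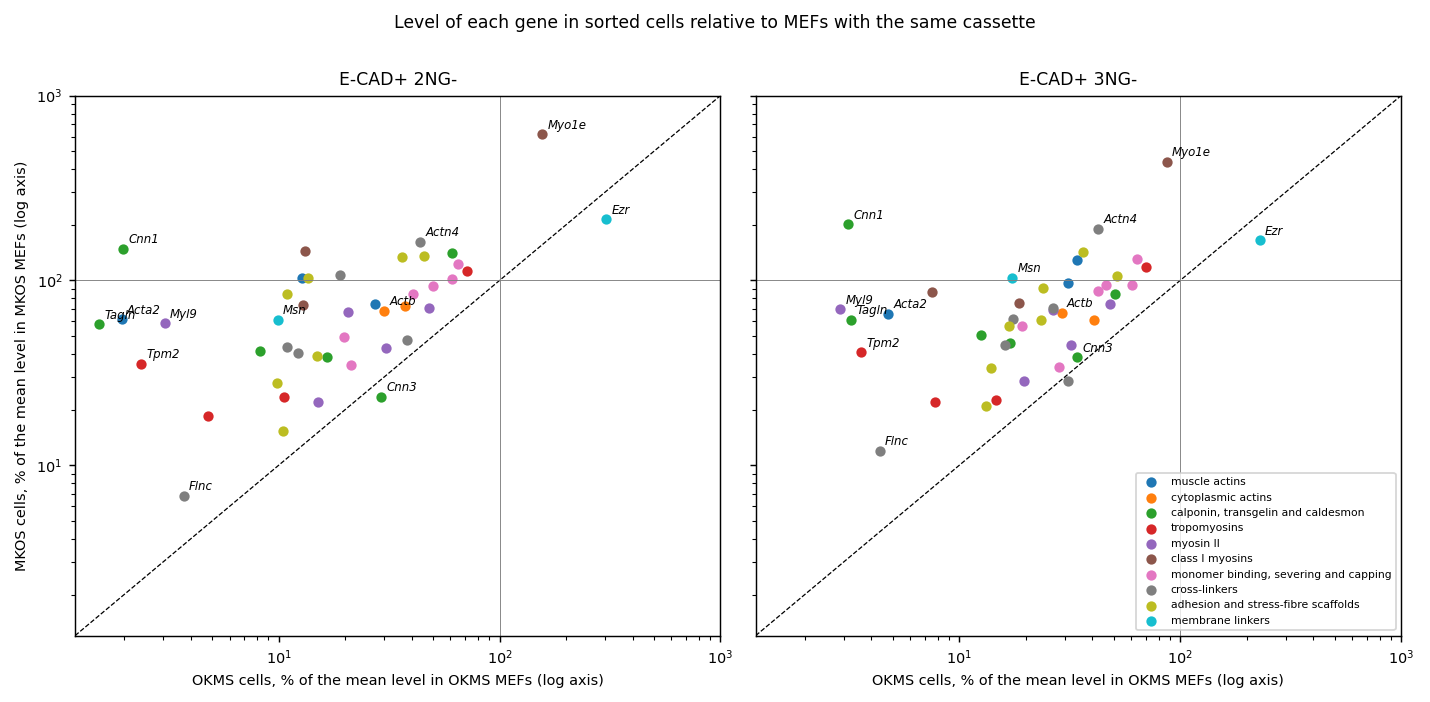
Mean CPM of each of the 44 genes in MKOS E-CAD+ cells (vertical, log axis) against OKMS E-CAD+ cells (horizontal, log axis), both as a percentage of the mean in MEFs of the same cassette, in 2NG- and 3NG- panels, coloured by role, with a dashed line of equal percentages. Most points lie above the line, with medians of 68.0% (MKOS) and 17.8% (OKMS) in 2NG-.

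Between the cassettes, the MEFs were compared first. None of the 44 genes passed edgeR's test between MKOS and OKMS MEFs (0.0256% of all genes were higher and 0.0768% lower), though 12 did when only these libraries were fitted and 9 with no filter on low counts, while 0 were higher and 14 lower at an unadjusted p of at most 0.05, and DESeq2 called 2. For counts at an unadjusted p, by DESeq2 or under another setting, here and in what follows, no share of all genes is given. Such counts do not set the members apart from other genes. The log2 fold change was below 0 for 40 of the 44, with a median of -0.67. Actn4, an alpha-actinin, came closest (-1.26 ± 0.30, adjusted p = 0.0659), at 112 and 155 CPM in MKOS and 245 and 423 in OKMS MEFs, which do not overlap. With 2 libraries a side, values of -1.47 for Acta2 and -2.31 for Cnn1 did not pass.

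In E-CAD+ 2NG- cells, 10 members were higher in MKOS than in OKMS and 0 lower, beside 2.84% and 2.23% of all genes. At an unadjusted p of at most 0.05, 24 were higher and 0 lower, and DESeq2 called 13, both without a share of all genes to set beside them. In 24 of the 44 genes all 3 MKOS libraries lay above all 3 OKMS libraries (16.9% of all genes), and in 0 below (8.07%). The median log2 fold change was 0.63, and 39 of the 44 values were above 0. The genes called were 4 of 7 scaffolds, 2 of 6 of the calponin group and 1 each of the muscle actins, tropomyosins, class I myosins and membrane linkers.

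Vasp, which elongates filaments at adhesions, had 98.5, 97.7 and 83.6 CPM in MKOS and 33.7, 31.9 and 32.3 in OKMS 2NG- (1.42 ± 0.22, adjusted p = 5.10e-05). Pdlim5, a PDZ-LIM scaffold of stress fibres, had 59.9, 58.6 and 47.4 CPM in MKOS against 10.6, 17.1 and 14.8 in OKMS (1.88 ± 0.30, adjusted p = 8.02e-05). Myo1c, a class I myosin that tethers membranes to actin, had 67.5, 57.0 and 40.4 CPM against 13.3, 17.7 and 11.4 (1.89 ± 0.33, adjusted p = 0.000201). No library of one cassette reached those of the other in these 3 genes, and they were the calls that held under every alternative tried. Tpm2 differed by 5.12-fold (2.36 ± 0.48, adjusted p = 0.00174) and Pdlim7, another PDZ-LIM scaffold, by 4.55-fold (2.19 ± 0.52, adjusted p = 0.00687), with Pdlim7 at 63.8, 67.2 and 42.7 CPM against 9.20, 6.45 and 18.2. Acta2 (3.44 ± 0.85, adjusted p = 0.0108) and Tagln (3.51 ± 0.94, adjusted p = 0.0190) had the largest differences called, and they rested on few libraries. Without MKOS 2NG- replicate 1 their adjusted p was 0.13 and 0.14, without OKMS replicate 3 it was 0.0757 and 0.107, and without OKMS replicate 2 that of Tagln was 0.0619. The call of Tpm2 was lost without MKOS replicate 1 (0.0583) and that of Pdlim7 without OKMS replicate 2 (0.0533). The count was 4 without MKOS replicate 1 and 6 without OKMS replicate 3. Msn (1.18), Cnn2 (1.16) and Lasp1, a scaffold that binds actin at the cell edge (0.88), were also higher, and each of these 3 calls was lost without any 1 of several libraries of either cassette, with adjusted p of up to 0.177 (Msn), 0.179 (Cnn2) and 0.206 (Lasp1). Among all 44 genes Cnn1 had the largest value, 3.70 ± 1.16, and missed the threshold (adjusted p = 0.0523).

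In E-CAD+ 3NG- cells, 4 members were higher in MKOS and 0 lower, beside 1.38% and 0.787% of all genes, with 20 higher and 0 lower at an unadjusted p of at most 0.05 and 6 called by DESeq2. In 20 genes the MKOS libraries all lay above the OKMS ones (15.3% of all genes), and in 0 below (6.44%). Lasp1 was at 115, 121 and 159 CPM in MKOS and 68.8, 57.4 and 28.3 in OKMS (1.23 ± 0.26, adjusted p = 0.00471). Myo1c was at 60.4, 65.6 and 42.6 CPM against 26.2, 25.9 and 8.95 (1.35 ± 0.32, adjusted p = 0.0127). Tpm2, with the values given earlier, differed by 3.98-fold (1.99 ± 0.47, adjusted p = 0.0135), and Myo1e, at 43.4, 43.3 and 58.5 CPM against 17.7, 18.6 and 12.2, by 2.75-fold (1.46 ± 0.40, adjusted p = 0.0377). Myo1c, Tpm2 and Lasp1 were thus called higher in both gates, and the MKOS libraries lay above the OKMS ones for all 4 genes. The count was 0 without OKMS 3NG- replicate 3, 1 without MKOS replicate 1 and 2 without replicate 2 of either cassette. Acta2 (2.18 ± 0.80, adjusted p = 0.164) and Tagln (2.47 ± 0.89, adjusted p = 0.153) did not pass here.

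In Nanog-GFP+ cells the cassettes differed in a single member. Lima1, which cross-links and stabilises filaments, was at 35.5, 31.4 and 43.2 CPM in MKOS and 176, 100.0 and 106 in OKMS 3NG+ (-1.96 ± 0.33, adjusted p = 0.00105), beside 0.345% of all genes higher and 0.339% lower. The median of the members was 0.18, and -0.14 without replicate 1 of all sorted populations, when 15 were above and 29 below 0. At an unadjusted p of at most 0.05, 10 were higher and 2 lower, and DESeq2 called 2. Without OKMS 3NG+ replicate 2, 3 were called, and without replicate 1 of the sorted populations the adjusted p of Lima1 was 0.165.

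**Figure D4:**
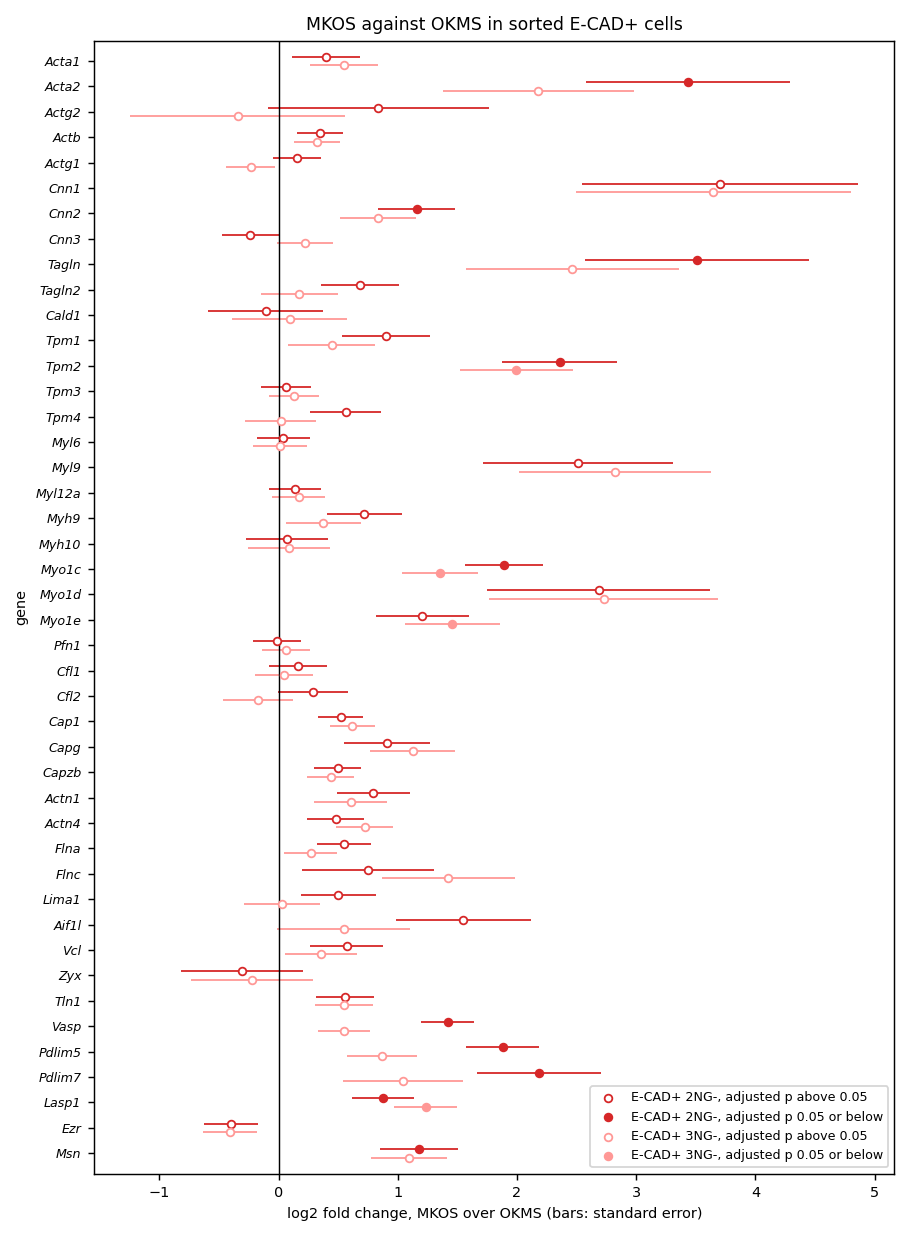
Log2 fold change of MKOS against OKMS E-CAD+ cells with its standard error for the 44 genes, grouped by role, in 2NG- (dark red) and 3NG- (pink), with filled points for an adjusted p of at most 0.05. Filled points all lie to the right of 0, 10 in 2NG- and 4 in 3NG-, and the widest error bars belong to the smooth muscle genes.

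The difference in the change from MEFs was tested itself, as the mean of E-CAD+ 2NG- and 3NG- minus the MEFs in MKOS less the same in OKMS. It was above 0 for 14 members and below 0 for none, beside 0.813% and 0.621% of all genes. The median was 1.29, and 41 of the 44 values were above 0. At an unadjusted p of at most 0.05, 29 were above and 1 below, and DESeq2 called 19. The 14 held 3 of 6 cross-linkers, 3 of 7 scaffolds, 2 of 6 of the calponin group, and 1 each of the muscle actins, cytoplasmic actins, tropomyosins, myosin II, class I myosins and membrane linkers.

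Actn4 went from 245 and 423 CPM in OKMS MEFs to 186, 149 and 103 in OKMS E-CAD+ 2NG-, and from 112 and 155 in MKOS MEFs to 218, 275 and 155 in MKOS 2NG- (1.86 ± 0.34, adjusted p = 0.00157). Pdlim5 went from 90.4 and 118 to 10.6, 17.1 and 14.8 CPM with OKMS, and from 50.2 and 57.6 to 59.9, 58.6 and 47.4 with MKOS (2.26 ± 0.42, adjusted p = 0.00163). Msn went from 282 and 296 to 23.9, 34.2 and 27.7 CPM with OKMS, and from 118 and 105 to 80.3, 92.7 and 32.7 with MKOS (2.44 ± 0.46, adjusted p = 0.00185). With OKMS all 3 genes were lower in 2NG- than in MEFs, and with MKOS Actn4 was at or above its MEF level. These were the calls, of the 12 largest differences, that held under all alternatives. Tpm2 (3.52 ± 0.67, adjusted p = 0.00228), Cnn1 (5.98 ± 1.59, adjusted p = 0.0412), Myl9 (4.29 ± 1.12, adjusted p = 0.0366) and Acta2 (4.28 ± 1.17, adjusted p = 0.0481) had larger values and wider errors, and their adjusted p rose to 0.0696, 0.267, 0.256 and 0.29 without MKOS MEF replicate 2, while Tagln missed the threshold (4.62 ± 1.29, adjusted p = 0.0565). The rest were Myo1c (2.12), Flna (1.45), Cnn2 (2.02), Lasp1 (1.63), Vasp (1.29), Actn1 (1.75) and Actb (1.03). The count was 4 without either MKOS MEF library, 9 or 5 without OKMS MEF replicate 1 or 2, and 7 without replicate 1 of all sorted populations. With the mean of all MEFs as a common start, chosen after seeing the data, it was 20 and the median of the members 0.55. A common start cancels out of the difference, so that setting compares the E-CAD+ cells of the cassettes directly. It is no check on the difference in the change from MEFs.

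Markers of fibroblasts moved with these differences, and their part in them was not tested. Fibroblast markers (12 genes) summed to 877, 458 and 723 CPM in MKOS 2NG- and 78.1, 138 and 301 CPM in OKMS E-CAD+ 2NG-, without overlap. Of the 12, 6 were called higher in MKOS, beside 2.84% of all genes. In 3NG- they summed to 1046, 578 and 743 CPM in MKOS and 307, 308 and 180 CPM in OKMS E-CAD+ cells, again without overlap. There 1 of the 12 was called higher, beside 1.38% of all genes. Endothelial and blood markers summed to 1571, 805 and 156 CPM in MKOS 2NG- and 256, 301 and 132 CPM in OKMS E-CAD+ 2NG-, carried by the macrophage gene Lyz2 (1467, 734 and 139 CPM in MKOS 2NG-), and these sums overlapped. In 3NG- the sums were 1875, 1035 and 162 CPM in MKOS and 375, 349 and 23.8 CPM in OKMS E-CAD+ cells, which overlapped as well. In the same list, Cdh5 was at 0 in every sorted MKOS library and Ptprc at 0 to 2.83 CPM over the sorted libraries. Tyrobp was at 80.7, 51.5 and 4.61 CPM in MKOS 2NG- and 15.2, 13.2 and 4.80 in OKMS E-CAD+ 2NG-. Cd68 was at 18.4, 17.6 and 10.2 against 3.41, 17.1 and 2.68 CPM. From MKOS MEFs to MKOS 2NG-, 4 of 6 rose (15% of all genes), and 1 of 6 from OKMS MEFs to OKMS E-CAD+ 2NG- (15.7%). Between the cassettes 0 of 6 passed the test, and their part in the members' differences was not tested. Replicate 1 was the highest library in 5 of the 8 sorted populations for Acta2, 6 for Tagln, 7 for Actg2 and 6 for Tpm2, and replicate 3 the lowest in 6, 6, 6 and 4. Differentiated muscle markers summed to 7.99 to 41.3 CPM in sorted cells and 38.6 to 90.6 CPM in MEFs.

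Among OKMS cells, E-CAD+ and E-CAD- populations were compared as means of 2NG- and 3NG-. E-cadherin was a sort marker. In E-CAD+ cells 7 members were higher and 5 lower, beside 4.69% and 2.39% of all genes. In the same comparison 8 of 12 fibroblast markers were lower (median log2 fold change -1.62), 8 of 8 epithelial and 7 of 8 pluripotency markers were higher, and their part in the members' differences was not tested. Myo1e was at 27.3, 52.5 and 7.34 CPM in E-CAD+ 2NG-, 17.7, 18.6 and 12.2 in E-CAD+ 3NG-, 4.55, 8.58 and 6.20 in E-CAD- 2NG- and 8.09, 6.28 and 9.53 in E-CAD- 3NG- (1.69 ± 0.30, adjusted p = 0.000113). Cnn3 was at 55.4, 50.9 and 56.2 CPM in E-CAD+ 2NG- and 68.4, 54.3 and 67.6 in E-CAD+ 3NG- against 97.1, 102 and 132 in E-CAD- 2NG- and 101, 86.5 and 161 in E-CAD- 3NG- (-0.82 ± 0.17, adjusted p = 0.00106). Cfl2 was at 60.8, 44.8 and 41.7 CPM in E-CAD+ 2NG- and 60.3, 74.0 and 61.2 in E-CAD+ 3NG- against 131, 119 and 133 in E-CAD- 2NG- and 122, 146 and 84.7 in E-CAD- 3NG- (-0.99 ± 0.21, adjusted p = 0.00151). Myo1e had the largest increase among the calls, and every E-CAD+ library of Cnn3 and Cfl2 lay below the E-CAD- libraries of the same gate. These 3 calls held under all alternatives.

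Capg was at 37.0, 45.8 and 46.8 CPM in E-CAD+ 2NG- and 49.8, 51.7 and 25.0 in E-CAD+ 3NG- against 20.7, 16.1 and 11.1 in E-CAD- 2NG- and 40.3, 29.3 and 23.7 in E-CAD- 3NG- (1.05 ± 0.26, adjusted p = 0.00796), so it was higher in E-CAD+ cells without overlap in 2NG-. Also higher were Tagln2, the transgelin of non-muscle cells (0.78), Lasp1 (0.62), Ezr (0.54), Myl12a, the non-muscle regulatory light chain (0.53), and Actg1 (0.45). Myl9 (-1.79), Tpm4 (-0.67) and Tln1 (-0.57) were lower. Acta2 (-1.66 ± 0.57, adjusted p = 0.0651) and Tagln (-1.51 ± 0.62, adjusted p = 0.134) did not pass. Leaving out single libraries gave 4 to 10 calls, with 4 without E-CAD+ 2NG- replicate 2, 5 without E-CAD+ 3NG- replicate 2 or E-CAD- 3NG- replicate 3, and 6 without replicate 1 of either E-CAD+ population or E-CAD- 3NG- replicate 2. Each of the 8 calls other than Myo1e, Cnn3, Cfl2 and Capg was lost without several of these libraries.

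The gain of ICAM1, from E-CAD+ 2NG- to 3NG-, came with no call. Of the 44 genes, 0 passed edgeR's test with MKOS (0.352% of all genes higher, 0.0384% lower) and 0 with OKMS (0.0384% higher, 0% lower). At an unadjusted p of at most 0.05, 3 were higher and 3 lower with MKOS and 3 higher and 1 lower with OKMS, and DESeq2 called 0 in both. With MKOS the smallest adjusted p was that of Cnn3 (0.62 ± 0.24, adjusted p = 0.462), and with OKMS that of Pdlim5 (0.77 ± 0.30, adjusted p = 0.891).

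The gain of Nanog-GFP, from 3NG- to 3NG+, came with 8 members lower and 0 higher in MKOS, beside 1.02% and 0.557% of all genes. The median log2 fold change was -0.93, and 40 of the 44 values were below 0. Cnn2 was at 265, 218 and 181 CPM in 3NG- and 104, 30.8 and 53.2 in 3NG+ (-1.69 ± 0.33, adjusted p = 0.00287). Tpm1 was at 403, 261 and 176 CPM in 3NG- and 125, 25.9 and 60.6 in 3NG+ (-1.87 ± 0.38, adjusted p = 0.00459). Msn was at 132, 119 and 95.6 CPM in 3NG- and 49.8, 18.6 and 38.7 in 3NG+ (-1.55 ± 0.33, adjusted p = 0.00780). The gates did not overlap in these 3 genes, and 3NG+ replicate 1 was the highest of its population in each, as it was for Acta2, Tagln, Cnn1 and Myl9. Tpm2 (-2.26), Cald1 (-2.11), Capg (-1.36), Myh10 (-1.30) and Flna (-0.92) also fell. The count was 0 without 3NG+ replicate 2, 1 without 3NG- replicate 1, 3 without 3NG+ replicate 3, 4 without 3NG- replicate 2 and 13 without 3NG+ replicate 1. When counts were scaled by total reads without TMM, the median of all genes moved to -0.209 and that of the members to -1.08.

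With OKMS, 4 members fell and Lima1 rose at the gain of Nanog-GFP, beside 3.21% and 3.06% of all genes, and the median was -0.44. Tagln2 was at 377, 433 and 219 CPM in 3NG- and 48, 115 and 51.4 in 3NG+ (-2.10 ± 0.34, adjusted p = 0.000106). Tpm4 was at 139, 113 and 99.1 CPM in 3NG- and 22.6, 21.7 and 43.8 in 3NG+ (-1.75 ± 0.32, adjusted p = 0.000427). Tpm1 was at 221, 211 and 144 CPM in 3NG- and 36.6, 90.9 and 39.1 in 3NG+ (-1.65 ± 0.38, adjusted p = 0.00606). The 3NG+ libraries of all 3 genes lay below those of 3NG-, and the calls of Tagln2 and Tpm4 held under all alternatives. Lima1 went the other way, from 63.4, 69.0 and 47.3 to 176, 100.0 and 106 CPM (1.31 ± 0.32, adjusted p = 0.00955). Actg2, at 81.5, 69.3 and 13.4 CPM in 3NG-, had 0, 20 and 8 reads in the 3NG+ libraries (-4.10 ± 1.19, adjusted p = 0.0307). The calls of Actg2, Tpm1 and Lima1 were lost without 3NG+ replicate 1 (adjusted p = 0.175, 0.0645 and 0.115). The count was 2 without 3NG+ replicate 1, 8 without 3NG+ replicate 2 and 9 without 3NG- replicate 3. Scaling by total reads without TMM moved the median of all genes to -0.269 and that of the members to -0.65.

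A difference between the cassettes in this change was found for 0 members in edgeR's test, beside 0.0128% of all genes higher and 0.0128% lower. At an unadjusted p of at most 0.05, 1 was higher and 6 lower, and DESeq2 called 1. Lima1 came closest (-1.99 ± 0.45, adjusted p = 0.118).

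From Nanog-GFP+ cells to iPSCs kept without doxycycline, few members changed. With MKOS, Acta2 fell from 365, 21.9 and 48.2 to 0.415 and 6.74 CPM (-5.44 ± 1.19, adjusted p = 0.00752), the 1 call, beside 0.825% of all genes higher and 1.32% lower. That call was lost without 3NG+ replicate 1 or iPSC replicate 1, when 0 were called, and the count was 3 without 3NG+ replicate 2 or iPSC replicate 2 and 2 without 3NG+ replicate 3. With OKMS 0 members were called, beside 0.301% higher and 0.313% lower. With MKOS, 4 were higher and 11 lower at an unadjusted p of at most 0.05, and DESeq2 called 3. Of the 12 fibroblast markers, 6 were lower in iPSCs with either cassette (medians of -4.91 with MKOS and -4.46 with OKMS), as were 2 of 6 endothelial and blood markers with MKOS, and their part in the fall of Acta2 was not tested. For OKMS 6 were higher and 3 lower at an unadjusted p of at most 0.05, DESeq2 called 0, and 2 were called without 3NG+ replicate 2.

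In iPSCs of both cassettes in 2i against those without doxycycline, 3 members were lower and 1 higher, beside 2.45% and 1.89% of all genes. Cnn2 was at 47.3 and 28.9 CPM in MKOS and 76.1 and 70.9 in OKMS iPSCs without doxycycline, and at 18.2 and 11.7 in MKOS and 19.9 and 29.9 in OKMS iPSCs in 2i (-1.56 ± 0.29, adjusted p = 0.000734). Tpm2 was at 29.2 and 52.3 CPM (MKOS) and 53.0 and 33.8 (OKMS) without doxycycline, and at 10.8 and 13.6 (MKOS) and 13.6 and 15.1 (OKMS) in 2i (-1.77 ± 0.43, adjusted p = 0.00917). Lima1 was at 118 and 39.7 CPM (MKOS) and 55.5 and 102 (OKMS) without doxycycline, and at 194 and 146 (MKOS) and 188 and 217 (OKMS) in 2i (1.14 ± 0.27, adjusted p = 0.00917). For Tpm2 and Lima1 the libraries in 2i and without doxycycline did not overlap within or across cassettes, and Actn4 was lower as well (-0.73 ± 0.21, adjusted p = 0.0311). Only the call of Cnn2 held under all alternatives. The count was 2 without replicate 1 of MKOS or OKMS iPSCs in 2i or replicate 2 of MKOS iPSCs without doxycycline, and 1 without replicate 1 of OKMS iPSCs without doxycycline.

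Between iPSCs without doxycycline and the TNG MKOS and TNG OKMS ESCs that carry the same cassettes, 1 member was higher and 1 lower, beside 1.13% and 0.269% of all genes. Flna was at 105 and 80.5 CPM in MKOS and 77.5 and 103 in OKMS iPSCs, and at 199 and 156 in TNG MKOS and 238 and 218 in TNG OKMS ESCs (-1.0 ± 0.20, adjusted p = 0.00261). Capg was at 17.2 and 46.8 CPM in MKOS and 62.9 and 39.0 in OKMS iPSCs, and at 33.6 and 27.9 in TNG MKOS and 5.36 and 12.6 in TNG OKMS ESCs (1.38 ± 0.32, adjusted p = 0.0142). The libraries of Flna did not overlap, and those of Capg did. The call of Capg was lost, and the count was 1, without replicate 2 of TNG MKOS ESCs or MKOS iPSCs, or replicate 1 of TNG OKMS ESCs or OKMS iPSCs (adjusted p = 0.123, 0.238, 0.178 and 0.123). Nor did the call of Flna hold under every alternative, where its adjusted p reached 0.094.

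Several of the shares that paralogues took of their family changed along the same path, but not all. By mean, Cnn1 and Cnn2 went from 84.1% of the reads on calponins in OKMS MEFs to 58.8% in OKMS E-CAD+ 2NG-. With MKOS they went from 68.1% in MEFs to 79.0% in 2NG- and 74.6% in 3NG-. Actb was 53.6% to 54.3% of the reads on Actb and Actg1 in MEFs, 48.6% in OKMS E-CAD+ 2NG-, 52.3% in MKOS 2NG- and 57.8% to 75.3% in ESCs. Tagln was 75.2% ± 1.46 (SD, n = 2) of the reads on Tagln and Tagln2 in WT MEFs, 57.9% ± 3.44 in MKOS MEFs and 76.1% ± 1.65 in OKMS MEFs. In sorted cells (n = 3) it was 41.5% ± 12.8 in OKMS E-CAD- 2NG-, 7.07% ± 2.33 in OKMS E-CAD+ 2NG- and 32.2% ± 20.9 in MKOS 2NG-. The libraries of MKOS 2NG-, at 14.2% to 55.2%, all lay above those of OKMS E-CAD+ 2NG-, at 4.91% to 9.53%. Tpm1, Tpm2 and Tpm4 together were 88.2% to 91.2% of the reads on tropomyosins in MEFs, 43.4% ± 2.88 in OKMS E-CAD+ 2NG-, 57.9% ± 11.4 in MKOS 2NG-, and 28.9% to 39.9% in ESCs, so that Tpm3, many of whose reads map to copies, was the main tropomyosin there. Ezr was 7.98% ± 2.14 of the reads on Ezr and Msn in WT MEFs, 32.2% ± 0.856 in MKOS MEFs, 13.8% ± 3.01 in OKMS MEFs, 83.0% ± 3.40 in OKMS E-CAD+ 2NG- and 63.9% ± 10.8 in MKOS 2NG-. In both cassettes ezrin took most of the reads of the pair in E-CAD+ 2NG- cells. By mean it also did in OKMS E-CAD- cells, at 64.2% ± 19.6 in 2NG- and 53.3% ± 8.64 in 3NG-, so this was not particular to E-CAD+ cells. Myl9 was 24.0% ± 0.988 of the reads on Myl9 and Myl12a in OKMS MEFs and 1.94% ± 0.522 in OKMS E-CAD+ 2NG-. It was 11.2% ± 0.291 in MKOS MEFs and 8.88% ± 5.37 in MKOS 2NG-, whose libraries lay on both sides of the MKOS MEFs. The muscle actins were 17% ± 1.11 of the reads on all 5 actins in WT MEFs, 16.2% ± 1.68 in OKMS MEFs and 2.49% ± 1.2 in OKMS E-CAD+ 2NG-, against 9.95% ± 1.53 in MKOS MEFs and 8.66% ± 6.15 in MKOS 2NG-. In OKMS E-CAD- 2NG- the shares were close to those of MKOS 2NG-. They were 56.0% ± 2.58 for Tpm1, Tpm2 and Tpm4, 8.56% ± 1.36 for Myl9 and 7.02% ± 3.42 for the muscle actins.

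**Figure D5:**
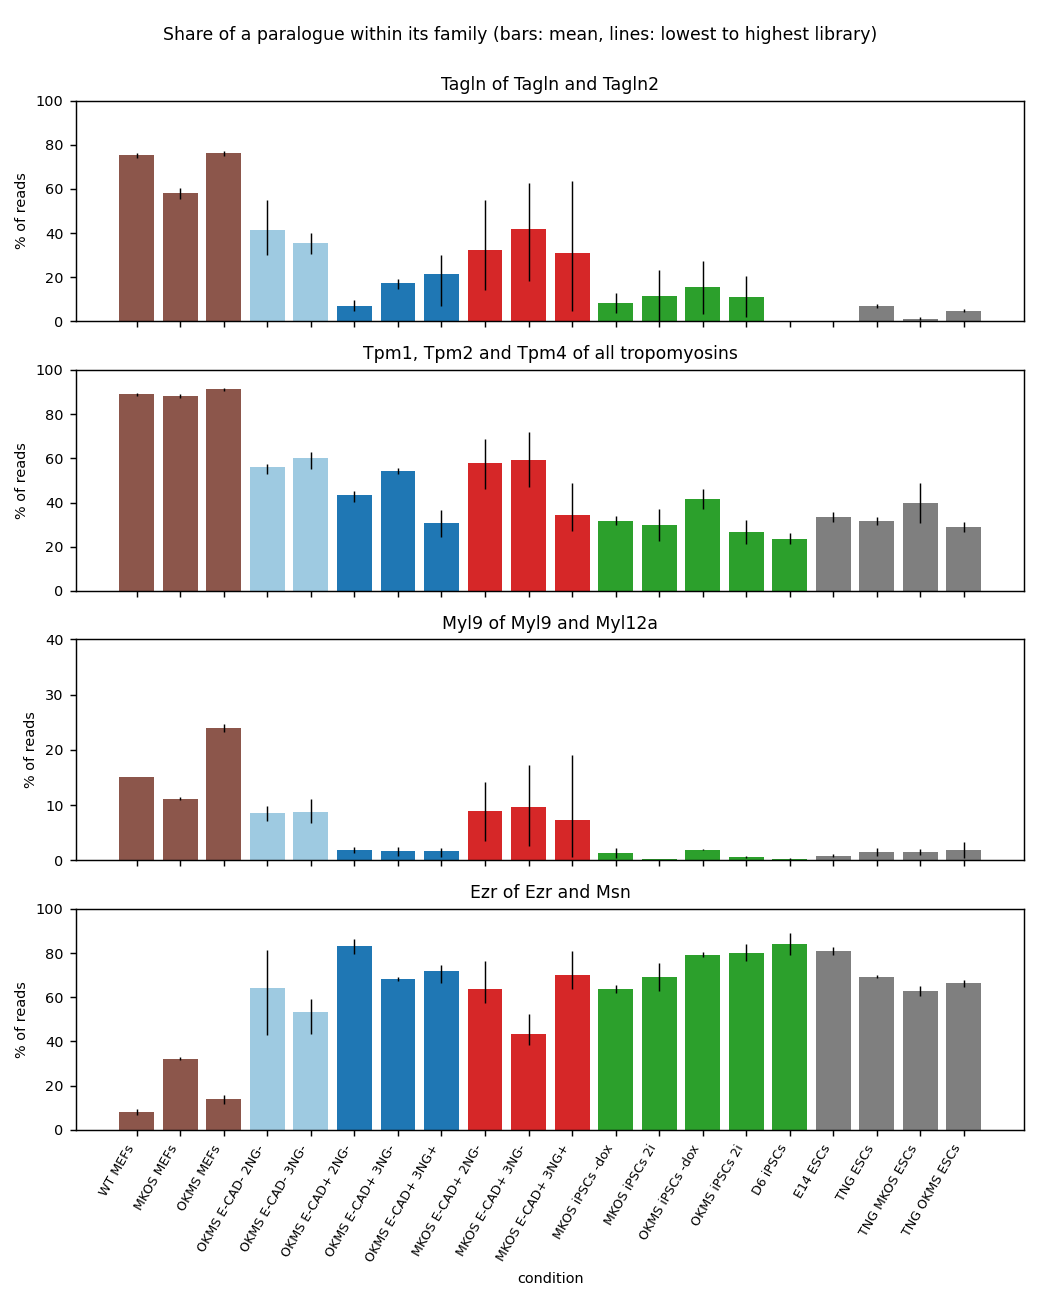
Percentage of a family's reads taken by the named paralogues in the 20 conditions, with bars at the mean and lines from the lowest to the highest library (colours as in the plot of the 8 genes). The Tagln and tropomyosin bars fall from MEFs to ESCs while the Ezr bars rise from at most 32.8% in the MEF libraries.

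The 7 members that the study itself singled out among actin-binding genes were chosen on these samples and are not independent evidence of a direction. They are Aif1l, an actin-bundling protein, Cap1, which recycles actin monomers, Capg, Capzb, the beta-subunit of capping protein, Cnn1, Myo1c and Myo1d, a class I myosin. From MEFs to ESCs all 7 fell, beside 30.4% of all genes. They fell in 5 of 7 cases to OKMS E-CAD- 2NG- (10.1% of all genes), in 7 of 7 to OKMS E-CAD+ 2NG- (13.5%), and in 1 of 7 (Capg, -1.06 ± 0.39, adjusted p = 0.0384) to MKOS 2NG- (12%). The difference between the cassettes in the change from MEFs was above 0 for all 7, from 0.797 (Cap1) to 5.98 (Cnn1) with a median of 1.75, and passed the test for Cnn1 and Myo1c. As means ± SD, Aif1l was at 57.1 ± 3.21 CPM in OKMS MEFs, 10.8 ± 9.96 in OKMS E-CAD+ 2NG-, 33.8 ± 3.01 in MKOS MEFs and 36.1 ± 22.1 in MKOS 2NG-. Myo1d was at 11.7 ± 2.31, 1.54 ± 1.24, 7.94 ± 2.25 and 11.5 ± 1.94 CPM in the same order, and Capg at 219 ± 33.2, 43.2 ± 5.39, 175 ± 12 and 86.4 ± 34.0 CPM. Capzb, at 320.3 ± 17.6, 129 ± 29.6, 228 ± 8.96 and 193 ± 21.7 CPM, and Cap1, at 212 ± 9.36, 106 ± 9.25, 174 ± 12.9 and 162 ± 25.0 CPM, changed least.

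Genes of the same pathways that are not among the 44 were followed by lists. Of all genes, 30.4% fell and 29.6% rose from MEFs to ESCs, 13.5% and 15.7% to OKMS E-CAD+ 2NG-, and 12% and 15% to MKOS 2NG-. Of the 9 subunits of Arp2/3, which nucleates branched filaments, 7 fell from MEFs to ESCs, 5 fell to OKMS E-CAD+ 2NG-, and 2 rose and 1 fell to MKOS 2NG-. All 8 targets of SRF and YAP fell to ESCs, with Thbs1 (-8.59) and Filip1l (-7.92) leading on the log2 scale, 6 fell to OKMS E-CAD+ 2NG- and 4 to MKOS 2NG-. Among 9 genes listed as SRF and its cofactors, 8 fell, led by Fhl2 (-8.73), and Csrp2 rose to ESCs, 4 fell to OKMS E-CAD+ 2NG- and 2 to MKOS 2NG-. Of 10 epithelial partners of actin, 4 rose to ESCs, led by Cdh1, the gene of E-cadherin (8.73), while Krt18 (-0.94) and Lcp1 (-2.92) fell, 3 rose to OKMS E-CAD+ 2NG- and 6 to MKOS 2NG-.

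MKOS 2NG- cells had more of several of these genes than OKMS E-CAD+ 2NG- cells, and less of none that was called. The Arp2/3 subunits Arpc1b (1.82), Arpc2 (1.10) and Actr2 (0.71), the targets Thbs1 (3.00) and Ctgf (1.86), Csrp1 (1.47) and the alpha-catenin Ctnna1 (0.57) were higher on the log2 scale. In 3NG- they were Actr2 (0.87), Ctgf (2.20), Csrp2 (1.06) and Ctnna1 (0.64). The difference in the change from MEFs passed for Actr2 (1.56), Arpc2 (1.68) and Csrp1 (2.00). At the gain of Nanog-GFP the target Cyr61 fell with both cassettes (-1.56 in MKOS and -1.77 in OKMS), as did the keratins Krt8 (-1.79 and -2.73) and Krt18 (-2.49 and -2.39). Of the 9 genes listed as SRF and its cofactors, 2 fell with OKMS, the cofactor Fhl2 (-3.80) among them, and 1 rose, beside 3.21% and 3.06% of all genes. With MKOS 0 of the 9 were called.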

How the data were processed

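STRT libraries were made from 10 ng of total RNA of each of 48 samples, and the authors deposited raw read counts per transcript. Per the labels, reads were aligned with Bowtie 0.12.7 to mm10; the study's methods name mm9, and all 44 members lay within 150 bases of their GRCm38.p6 genes. Reads with several positions were assigned by the authors to the most 5′ exonic one. The counts held repeats as well, 14.2% to 33.1% of the reads of a library, which were left out.

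Genes were filtered by filterByExpr on the condition and scaled by TMM, and 15630 were tested with edgeR 4.0.16 (R 4.3.3; quasi-likelihood, 1 coefficient for each of 20 conditions, all 48 libraries, common dispersion 0.217, adjusted p at most 0.05). The test was tried on counts simulated for the MKOS and OKMS E-CAD+ 2NG- libraries alone, with the common dispersion for every gene. Of 200 genes changed 4-fold, 79 were called, and 4 unchanged genes were called. That fit was not the fit of all 48 libraries. A gene that did not pass the test may thus still have changed. Fits without single libraries kept the genes and the dispersion trend of the full fit. Alternatives were DESeq2 1.42.0 with its size factors, no filter, no TMM, only the libraries compared, a replicate block, and 41 libraries, without the 7 that the study's own averages leave out. Tables and plots used Python 3.11.15, pandas 2.3.3, NumPy 2.4.6 and Matplotlib 3.10.9. No molecular identifiers are named, so floors of 3 reads cover counting error only.

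The members, gene lists and tests were chosen with earlier results of these data known. Values per library were given for the 4 called members with the smallest adjusted p in a comparison, and log2 values for up to 12 with the largest changes, beside 8 genes (Acta2, Tagln, Cnn1, Myl9, Tpm2, Actb, Actg1 and Ezr) and the 7 that the study singled out. The results of another list of pathway genes are not reported here.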

Additional observations from a re-analysis of the deposited data

Results flagged for a closer look

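The change from MEFs to E-CAD+ cells differed between MKOS and OKMS in 14 of the 44 genes, by the test of the difference itself. On the log2 scale, MKOS less OKMS, it was 5.98 for Cnn1, 4.29 for Myl9, 4.28 for Acta2, 3.52 for Tpm2, 2.44 for Msn, 2.26 for Pdlim5, 2.12 for Myo1c, 2.02 for Cnn2, 1.86 for Actn4, 1.75 for Actn1, 1.63 for Lasp1, 1.45 for Flna, 1.29 for Vasp and 1.03 for Actb. All 14 were above 0, and the adjusted p (edgeR) ran from 0.00157 for Actn4 to 0.0481 for Acta2. Over the alternatives it ranged from 1.47e-05 to 0.0469 for Actn4, from 1.23e-05 to 0.028 for Pdlim5 and from 2.51e-07 to 0.0471 for Msn, but from 3.41e-30 to 0.29 for Acta2 and from 1.11e-08 to 0.267 for Cnn1. The lowest of these p-values, except that of Pdlim5, came from the fit with no filter on low counts. The MKOS MEFs had lower values than the OKMS MEFs for 40 of the 44 genes, though 0 passed edgeR's test (0 higher and 14 lower at an unadjusted p of at most 0.05, 2 called by DESeq2, 12 by edgeR on only these libraries and 9 with no filter on low counts). The test for single outliers needs 4 or more samples in a group, so it was not run on these groups of 2 or 3.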

How the results depend on the processing

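Over 112 named values and their alternatives, 1968 checks kept the direction in every case, 1673 of them also on the same side of the threshold, and 295 lost the call. Of the calls named, all held under every alternative from MEFs to ESCs (14 of 14) and from OKMS MEFs to E-CAD+ 2NG- (13 of 13), while 3 of 10 did between the cassettes in 2NG- (Myo1c, Pdlim5 and Vasp), 0 of 4 in 3NG- and 3 of 12 in the difference of the change from MEFs (Msn, Pdlim5 and Actn4).

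The number of members called moved by over 1.5 times as follows, and the cause was not tested. With no filter on low counts it was 9 between the MEFs, 16 in 2NG-, 12 in 3NG- and 7 in 3NG+ between the cassettes, 22 for the difference in the change from MEFs, 1 (MKOS) and 3 (OKMS) from 2NG- to 3NG-, 21 (MKOS) and 12 (OKMS) at the gain of Nanog-GFP with 4 for their difference, 8 (MKOS) and 5 (OKMS) from 3NG+ to iPSCs, 8 for 2i and 6 between iPSCs and ESCs. With DESeq2 it was 2 between the MEFs, 2 in 3NG+, 1 for the difference at the gain of Nanog-GFP and 3 from MKOS 3NG+ to iPSCs. Fitting only the libraries compared gave 12 between the MEFs, 1 in 3NG-, 1 for the difference at the gain of Nanog-GFP, 2 for 2i and 1 between iPSCs and ESCs. With 41 libraries it was 1 between the MEFs, 2 in 3NG-, 6 in 3NG+, 17 (MKOS) and 12 (OKMS) at the gain of Nanog-GFP and 5 (MKOS) and 2 (OKMS) from 3NG+ to iPSCs.

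Total reads without TMM gave 8 in 3NG-, 2 in 3NG+ and 11 at the gain of Nanog-GFP with OKMS. That scaling moved the median of all genes by 0.195 (log2) for the difference in the change from MEFs, where the members had 1.45, by 0.126 in 3NG- (members 0.61), by 0.167 in 3NG+ (0.34) and by -0.119 between iPSCs and ESCs (-0.21). DESeq2's size factors moved it by -0.129 from MEFs to ESCs (members -2.24).

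Same-numbered libraries were not shown to be pairs, since the correlation of their deviations averaged 0.0805 over 84 pairs (-0.0406 to 0.348, above 0.1 in 23). With the replicate block the count was 12 in 2NG-, 8 in 3NG-, 2 in 3NG+, 1 between the MEFs, 17 for the difference in the change from MEFs, 8 at the gain of Nanog-GFP with OKMS and 3 from MKOS 3NG+ to iPSCs.

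With single libraries or sorted replicate 1 or 3 left out, the count ran from 41 to 42 from MEFs to ESCs, 14 to 20 from MKOS MEFs to 2NG-, 34 to 38 from OKMS MEFs to E-CAD- 2NG- and 36 to 40 to E-CAD+ 2NG-, 0 to 1 between the MEFs, 4 to 13 in 2NG-, 0 to 4 in 3NG- and 0 to 3 in 3NG+ between the cassettes, and 4 to 17 for the difference in the change from MEFs. It ran from 4 to 10 for E-CAD+ against E-CAD-, 0 to 0 from 2NG- to 3NG- with either cassette, 0 to 13 (MKOS) and 2 to 9 (OKMS) at the gain of Nanog-GFP with 0 to 0 for their difference, 0 to 6 (MKOS) and 0 to 2 (OKMS) from 3NG+ to iPSCs, 1 to 6 for 2i and 1 to 3 between iPSCs and ESCs. Leaving out sorted replicate 1 or 3 and the common MEF start were chosen after seeing the data.

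With 2 or 3 libraries a condition and wide spread between the MKOS libraries, differences of the smooth muscle genes had standard errors near or above 1 on the log2 scale. Cnn1 in OKMS E-CAD+ cells and Actg2 in ESCs were close to the counting floor, and counts of the 7 members with many shared reads cannot be assigned to a single copy. When CPM was taken over transcripts and repeats together, 131 of 280 levels moved by over 1 SD and 149 did not.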
